A study of Mus musculus with 14 samples.

Results

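The data described here are the 9 arrays of Dcx mutant hippocampal CA3, out of 14 arrays in all. They were chosen by their titles, which name either the inner or the outer layer, and were set against the 5 arrays titled WT. The question was which genes differed from WT in the same direction in both mutant layers, and which were carried by 1 layer. All mice were adults on the Sv129Pas background. In 5 WT mice (animals 142, 144, 145, 199 and 206) CA3 was dissected in 1 piece. In 5 Dcx mutant mice the 2 pyramidal layers were dissected apart, which gave 5 outer samples, SPE (animals 146, 147, 148, 165 and 166), and 4 inner samples, SPI (animals 146, 147, 148 and 166). Both layers were thus measured in 4 of the 5 mutant animals. RNA was extracted from pooled microdissected pieces, amplified, labelled with biotin and hybridised to Illumina bead arrays. The labels are not uniform on the layer: the brain region field of all 5 outer samples, and the source field of 1 of them, carries the inner layer's code beside words for the outer one, and the titles and words were followed here. The labels give no detail of the Dcx allele, and no further treatment of either genotype. Genotype cannot be told apart from the dissection, since WT CA3 was never split, and in whole tissue pieces fewer cells of a type cannot be told apart from less RNA per cell.

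Doublecortin, the product of the X-linked gene Dcx, is a microtubule-associated protein of migrating neurons. In the mouse its loss leaves the neocortex largely ordered but splits the CA3 pyramidal layer, so that neurons come to rest in an inner and an outer band. CA3 pyramidal cells receive mossy fibre input from the dentate gyrus and excite each other and CA1. In a neuron, microtubules carry the Golgi apparatus, mitochondria, endosomes and autophagosomes, the organelles to which several of the genes below belong.

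Signal was lower on the mutant arrays. Mean raw intensity was 456 ± 54.1 units (SD, n = 5) in WT and 327 ± 76.9 (SD, n = 4 animals, layers averaged) in the mutants, with p = 0.0317 in a two-sided exact permutation test whose smallest possible p is 0.0159. The arrays ran from 371 to 515 in WT, from 279 to 482 in SPE and from 119 to 362 in SPI, so SPE overlapped WT and every SPI array lay below every WT array. The same exact permutation test gave p = 0.0556 for the number of probes detected. The Dcx probe used was dim and did not pass the test (-0.42 ± 0.20, adjusted p = 0.207). Its group means differed from WT by -0.45 in SPI and -0.42 in SPE. A further Dcx probe, detected on 9 arrays, differed by -0.88 and -0.46. Since the mutated part of Dcx is not given in the labels, neither probe checks the genotype labels. Of the 13 measured CA3 pyramidal markers none was called between mutant and WT on the mean of the layers. SPI alone, where 24.5% of all features were called, gave 2 of these markers higher and 2 lower. Their mean log2 signal ran from 8.25 to 8.44 in WT, from 8.30 to 8.42 in SPE and from 8.12 to 8.31 in SPI.

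Expression was compared as log2 normalised signal over 9355 features, 8671 of them named genes, in 1 limma fit with the animal as a block. Calls were made where the p-value, adjusted by Benjamini-Hochberg over all features, lay under 0.05. With both layers weighted equally, 296 features differed between mutant and WT (3.16%), 186 of them higher (1.99%) and 110 lower (1.18%). These calls were carried mainly by the inner layer. SPI alone differed from WT in 2289 features (24.5%), among them all 296, and its difference was the larger one in 295 of the 296. SPE alone gave 0 calls (0%), with a smallest adjusted p of 0.904 and 358 features (3.83%) at an unadjusted p under 0.05. Without any difference a share of about 0.05 would lie there, so the outer layer showed no excess of small limma p-values. The layers differed from each other in 1917 features (20.5%).

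A feature was placed in the shared class when it was called between mutant and WT, had the same sign in both layers, had a smaller layer difference at least 0.5 of the larger on the log2 scale, and was not called between SPI and SPE. By this rule 25 named genes were shared (0.267% of features), 12 higher and 13 lower in the mutants. Of the other called features 263 were carried by the inner layer and 8 were unresolved. Over every feature called in any comparison with WT, 1496 were carried by the inner layer (16%), 768 were unresolved (8.21%) and 0 were carried by the outer layer. A stricter reading asked for a difference in each layer on its own, taking the larger of the layer p-values. At an unadjusted p under 0.05 in both layers with the same sign, 237 features met it (2.53%), 131 higher (1.4%) and 106 lower (1.13%), and 76 of these were also called between mutant and WT. After adjustment none passed, the smallest adjusted p being 1. The layers share the WT arrays, so a common sign is not independent support, and 6664 of the 9355 features (71.2%) had the same sign in both.

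**Figure D1:**
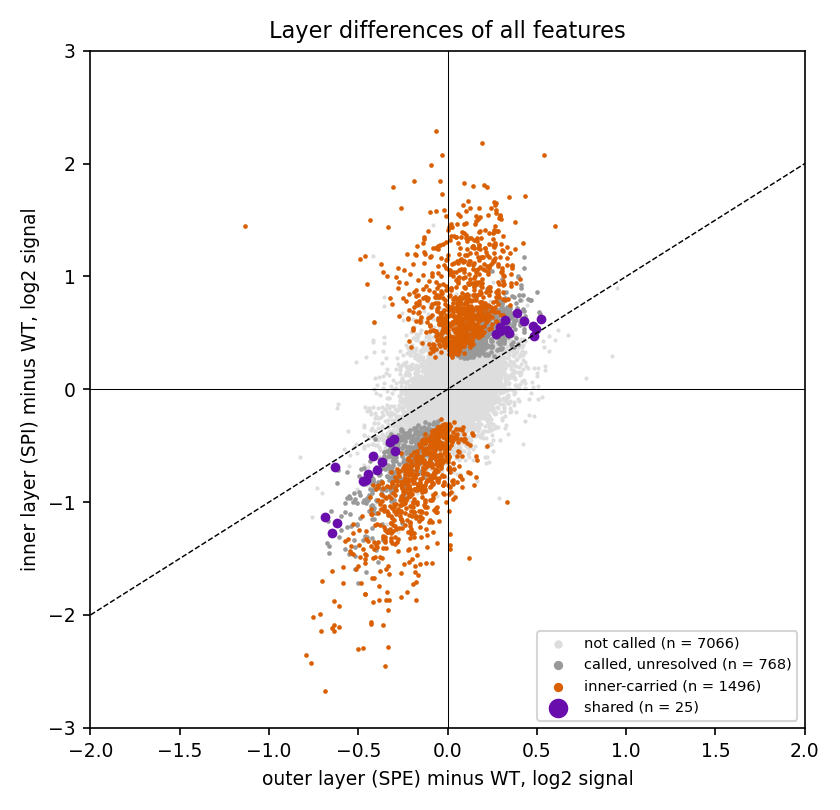
Each point is 1 of the 9355 features, with its outer layer (SPE, n = 5) minus WT (n = 5) log2 difference on the x axis and its inner layer (SPI, n = 4) minus WT difference on the y axis; the dashed line marks equal differences. The 25 shared genes lie near the dashed line within 1.28 log2 units of 0, while the 1496 inner-carried features spread along the y axis.

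The shared genes moved by modest amounts. The 12 that rose did so by 0.38 to 0.57 on the log2 scale and the 13 that fell changed by -0.37 to -0.96, none reaching a 2-fold change, whereas 25 of all 296 called features did. Their adjusted p-values lay between 0.0220 and 0.0465. The median of the shared risers was 0.54 in SPI and 0.37 in SPE, and that of the shared fallers -0.72 and -0.45. Over all features the medians were 0.035 and 0.036. On all 9 mutant arrays each of the 25 lay on the same side of the WT mean, and for 12 of the 25 the 9 mutant arrays did not overlap the 5 WT arrays at all. Such separation was found for 28 of the 296 called features and 80 of all features (0.855%). The class was chosen by its mutant call and layer ratio on these same arrays, so its separation is a description and no further support. SPE had the larger difference in 1 of the 25, Arntl. The 95% interval of the difference between SPI and SPE held 0 for 11 of the 25, and for the other 14 the inner layer departed further from WT at an unadjusted p under 0.05, so a common direction and not an equal size defines the class. The mean of 10 microglial markers likewise lay above WT on all 9 mutant arrays (5.64 to 6.56 against 5.43 to 5.63 log2 units), and its part in these changes was not tested.

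The number of shared genes depended on single arrays. It was 0 without WT 144, 1 without WT 142, WT 145 or WT 206, 3 without WT 199 or SPE 147, 7 without SPE 166, 9 without SPE 146, 10 without SPI 146, 41 without SPI 148, 49 without SPI 147 and 57 without SPI 166. All 25 genes kept their direction in each of the 14 fits that left out 1 array. They had been chosen by the mutant call on these same arrays, so a kept direction is no separate support. With the log2 mean signal of each array as a covariate, and with the 9 mutant arrays fitted as 1 group, 0 features were called between mutant and WT. The differences themselves kept their sign for all 25 genes and came to 52.1% to 108% of the values given here with the covariate (median 82.4%, Arntl 0.45, Stoml1 -0.47), and to a median of 97.5% as 1 group. When arrays were scaled to the median of the detected probes in place of quantile normalisation, 12 features were shared, 4 of them among the 25 (Arntl, Cog2, Ppp5c and Stoml1), on a table whose median had moved to 0.15. The layers then had opposite signs for 7 of the 13 fallers, each above WT in SPI and below it in SPE: Cers1 (0.27 and -0.46), Tepsin (0.036 and -0.36), Wdr55 (0.16 and -0.26), 1700037C18Rik (0.31 and -0.29), Lhx9 (0.22 and -0.21), Ube2j2 (0.41 and -0.14) and Ybx3 (0.58 and -0.15). For the last 4 the mean of the layers turned as well, to 0.0078, 0.0069, 0.13 and 0.21. Scaling to the median of all 25697 probes moved the median of the mutant differences to -0.48 and left 0 genes shared; the 12 risers then read -0.32 to -0.0078, below 0 and above that median.

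**Figure D2:**
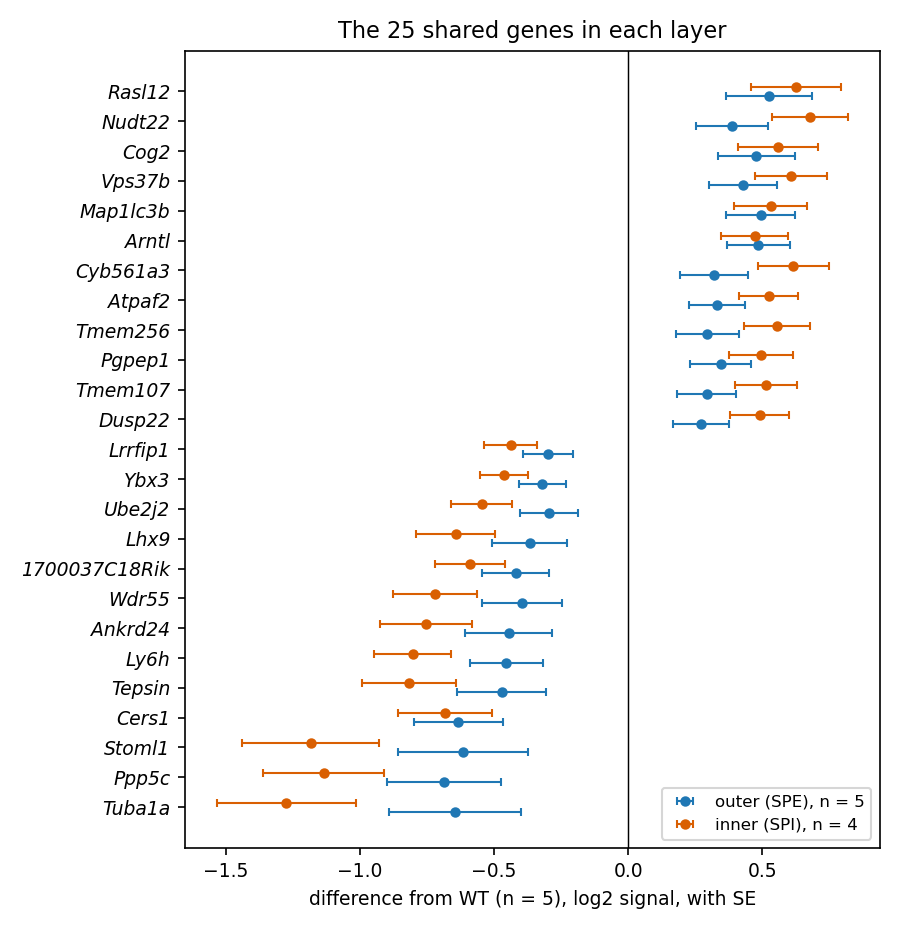
The 25 shared genes are ordered by their mutant minus WT difference, with the x axis giving the log2 difference from WT (n = 5) in the outer (SPE, n = 5, blue) and inner (SPI, n = 4, orange) layer; bars are standard errors of the fit. Both layers lie on the same side of 0 for every gene, and the blue and orange points nearly coincide for Arntl, Map1lc3b, Cog2 and Rasl12, and for Cers1, whose probe was detected on 3 of the 9 mutant arrays.

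Among the shared risers was Map1lc3b, which encodes LC3B, the protein that is attached to the membrane of the growing autophagosome. Its log2 signal was 7.53, 7.56, 7.70, 7.70 and 7.77 on the WT arrays, 8.01, 8.06, 8.09, 8.20 and 8.36 on the SPE arrays and 7.82, 8.08, 8.23 and 8.62 on the SPI arrays. Every mutant array lay above every WT array, and the rise was 0.51 ± 0.12 (SE, adjusted p = 0.0334), made up of 0.53 ± 0.13 in SPI and 0.49 ± 0.13 in SPE. The difference between the layers was 0.037 (95% interval -0.20 to 0.28, adjusted p = 0.846), so the layers were not distinguished. Retreg1, a receptor that delivers pieces of the endoplasmic reticulum to autophagy, read 8.00, 8.19, 8.21, 8.46 and 8.48 in WT, 8.66, 8.68, 8.69, 8.77 and 8.78 in SPE and 8.84, 8.95, 9.06 and 9.44 in SPI. Its groups did not overlap, all 9 mutant arrays being higher, and it rose by 0.62 ± 0.12 (SE, adjusted p = 0.0186). Retreg1 fell outside the shared class, although its layer ratio was 0.56, because SPI was higher than SPE by 0.35 (95% interval 0.11 to 0.60, adjusted p = 0.0404), a called difference. On the autophagy list, which does not hold Retreg1, 22 genes were measured, of which 1 rose (Map1lc3b) and 1 fell (Sqstm1, the cargo receptor p62, -0.76 ± 0.20, adjusted p = 0.0462). Sqstm1 was carried by the inner layer, at -1.24 ± 0.22 in SPI and -0.29 ± 0.21 in SPE. The median mutant difference of the list was 0.034, beside 0.039 over all features.

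Cog2 encodes a subunit of the COG complex, which tethers vesicles returning to the Golgi. It read 5.58, 5.63, 5.63, 5.68 and 6.06 in WT, 6.09, 6.13, 6.17, 6.21 and 6.36 in SPE and 5.99, 6.11, 6.31 and 6.67 in SPI. The WT array of animal 199 reached into the mutant range, and the other 4 WT arrays lay below every mutant array. Cog2 rose by 0.52 ± 0.13 (SE, adjusted p = 0.0458), with 0.56 ± 0.15 in SPI and 0.48 ± 0.14 in SPE. It was 1 of 2 genes called between mutant and WT among 56 measured Golgi structure and coat genes. The other was Tpst2, a tyrosine sulphotransferase of the Golgi, which rose by 0.41 ± 0.10 (SE, adjusted p = 0.0426) and was carried by the inner layer. Among the 56, 3 were higher in both layers at an unadjusted p under 0.05, namely Cog2, the further COG subunit gene Cog8 and the COPI coat gene Cope. Cog8 differed by 0.40 ± 0.11 (SE, adjusted p = 0.0560) and Cope by 0.31 ± 0.10 (SE, adjusted p = 0.0921), neither of them called. The median mutant difference of the whole list was -0.027.

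Vps37b, which encodes a subunit of the ESCRT-I complex that sorts membrane proteins at endosomes, read 7.94, 8.11, 8.27, 8.42 and 8.60 in WT, 8.52, 8.53, 8.65, 8.84 and 8.93 in SPE and 8.79, 8.82, 8.96 and 8.99 in SPI. The groups overlapped at WT 199 only, and Vps37b rose by 0.52 ± 0.12 (SE, adjusted p = 0.0334). Cyb561a3, a cytochrome b561 of lysosomal membranes, rose by 0.47 ± 0.12 (SE, adjusted p = 0.0445) and read 6.41 to 6.63 in WT, 6.59 to 7.25 in SPE and 6.98 to 7.57 in SPI. Tepsin, an accessory protein of the AP-4 coat that forms at the trans-Golgi network, went the other way (-0.64 ± 0.15, adjusted p = 0.0366). It read 5.32 to 6.02 in WT, 4.84 to 5.33 in SPE and 4.46 to 5.10 in SPI, and was detected on 2 of 4 SPI arrays. Ube2j2, a ubiquitin-conjugating enzyme of the endoplasmic reticulum membrane, also fell (-0.42 ± 0.10, adjusted p = 0.0365), but its probe was not detected on any SPI array, so that the inner layer gives only a bound of at least 1.02-fold lower than WT. Of 35 measured genes of export from the endoplasmic reticulum 1 fell, Mcfd2, a cargo receptor subunit (-0.47 ± 0.11, adjusted p = 0.0365), carried by the inner layer. Kdelr2, a receptor that returns resident proteins to the endoplasmic reticulum, just missed the call (-0.86 ± 0.23, adjusted p = 0.0519) with a layer ratio of 0.53.

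Atpaf2 encodes an assembly factor of the F1 part of ATP synthase. On the probe used it read 7.48, 7.61, 7.72, 7.76 and 7.85 in WT, 7.90, 7.95, 8.02, 8.09 and 8.12 in SPE and 8.08, 8.12, 8.26 and 8.41 in SPI. Every mutant array was higher than every WT array, a rise of 0.43 ± 0.10 (SE, adjusted p = 0.0325). A further detected probe for Atpaf2 went the other way, by -0.54 in SPI and -0.26 in SPE, so the direction for the gene is not settled. Ndufs3, a core subunit of complex I, read 10.73, 10.84, 10.86, 10.99 and 11.06 in WT, 10.08, 10.41, 10.49, 10.65 and 10.79 in SPE and 9.92, 9.99, 10.00 and 10.34 in SPI. SPE 165 alone of the mutant arrays entered the WT range, and the gene fell by 0.61 ± 0.13 (SE, adjusted p = 0.0248). Its layer ratio was 0.51, but the layers were called apart, SPI minus SPE being -0.39 (95% interval -0.66 to -0.13, adjusted p = 0.0343).

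Ndufs3 was the only gene called between mutant and WT among 32 measured complex I genes, whose median was -0.082. SPI alone gave 3 higher and 5 lower calls there, where 24.5% of all features were called. Of 37 measured genes of complexes II to V, 2 fell, Atp5pb of ATP synthase (-1.57 ± 0.36, adjusted p = 0.0333) and Cox7a2l of complex IV assembly (-0.88 ± 0.22, adjusted p = 0.0459), both carried by the inner layer. Lower in both layers at an unadjusted p under 0.05, without being called, were Sdhb of complex II (-0.44 ± 0.13, adjusted p = 0.0730) and Cox6a1 of complex IV (-0.29 ± 0.10, adjusted p = 0.110). For Sdhb all 9 mutant arrays lay below all WT arrays. The same was true of Fis1, an outer membrane protein of mitochondrial fission, which read 10.99, 11.06, 11.12, 11.25 and 11.38 in WT, 10.48, 10.88, 10.90, 10.98 and 10.98 in SPE and 10.35, 10.76, 10.95 and 10.97 in SPI. Its difference was -0.36 ± 0.12 (SE, adjusted p = 0.101) and its layer ratio 0.80, and it was not called. Among 36 measured genes of mitochondrial dynamics and import 1 was called between mutant and WT, Vdac3, a channel of the outer membrane (-0.95 ± 0.24, adjusted p = 0.0445), carried by the inner layer. The medians of these lists, -0.051 for complexes II to V and -0.013 for dynamics and import, lay close to that of all features.

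Tuba1a, an alpha-tubulin of developing neurons that is mutated in human lissencephaly, had the largest difference of the shared genes. It read 11.28, 11.28, 11.45, 11.49 and 11.62 in WT, 9.85, 10.80, 10.86, 11.17 and 11.21 in SPE and 9.20, 10.08, 10.50 and 10.68 in SPI. All 9 mutant arrays lay below all WT arrays, with SPE 148 and SPI 148, both from 1 animal, the lowest of their layers. Tuba1a fell by 0.96 ± 0.23 (SE, adjusted p = 0.0365), at -1.28 ± 0.26 in SPI and -0.65 ± 0.25 in SPE. Its layer ratio of 0.507 was the lowest of the class, just above the limit of 0.5, and the class was sensitive. Without both arrays of animal 148 Tuba1a was called at -0.70 and carried by the inner layer, as it was with median scaling (-1.01). It was unresolved without the 3 dimmest arrays (-0.62) and with no replicate block (-0.98). Just below that limit were Npcd at 0.493 and Sez6l at 0.490. Alpha-tubulin genes are close in sequence, and whether the probe separates them was not tested. Tuba1b differed by -0.47 ± 0.15 (adjusted p = 0.0839). Tuba1a was the 1 gene called between mutant and WT among 31 measured tubulin and microtubule-associated genes, whose median was -0.058. SPI alone gave 3 higher and 6 lower calls there, where 24.5% of all features were called. None of the 30 measured partners of Lis1 and dynein was called between mutant and WT on the mean of the layers. In SPI alone 2 of them were higher and 8 lower, where 24.5% of all features were called. The inner layer carried 8 of the 30, 1 higher and 7 lower. The Dcx relatives Dclk1 (0.31 ± 0.11, adjusted p = 0.118), Dclk2 (0.18 ± 0.11, adjusted p = 0.338) and Dclk3 (0.43 ± 0.15, adjusted p = 0.113) were not called on the mean of the layers either. In SPI alone 2 of the 4 measured doublecortin family genes were called higher than WT, and 1 of the family was carried by the inner layer. Over all features 13.6% were called higher in SPI and 16% were carried by the inner layer. The group means of Dclk3 lay above WT by 0.86 in SPI and 0.013 in SPE, and those of Dclk1 by 0.39 and 0.24.

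Arntl was the gene whose layers were most alike. It encodes BMAL1, which pairs with CLOCK to drive the circadian transcription loop. Its log2 signal was 5.58, 5.62, 5.89, 5.92 and 5.93 in WT, 6.10, 6.23, 6.32, 6.36 and 6.36 in SPE and 6.08, 6.12, 6.44 and 6.45 in SPI. The mutant arrays all lay above the WT arrays, and both layers had a mean of 6.27 against 5.79 in WT. The rise was 0.48 ± 0.11 (SE, adjusted p = 0.0333), with a difference between layers of -0.014 (95% interval -0.24 to 0.21, adjusted p = 0.940). Arntl was the only gene called between mutant and WT of 15 measured clock genes, whose median was -0.010. SPI alone gave 2 higher calls, Arntl among them, where 13.6% of all features were called higher.

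The promoters of the 4 shared genes with the most equal layer differences are shown, with the limit on Cers1 given below, because these genes had near-equal differences in both layers. The windows hold the 250 bases before the transcription start on the plus strand, from RefSeq on build GRCm38.p6, at chr7:113207215-113207464 for Arntl (the first of 2 listed starts), chr8:121590188-121590437 for Map1lc3b, chr8:70315525-70315774 for Cers1 and chr8:124520517-124520766 for Cog2. Capitals mark matches to CCAAT, on either strand (ATTGG on the opposite one), and to AGGTCA.
Arntl: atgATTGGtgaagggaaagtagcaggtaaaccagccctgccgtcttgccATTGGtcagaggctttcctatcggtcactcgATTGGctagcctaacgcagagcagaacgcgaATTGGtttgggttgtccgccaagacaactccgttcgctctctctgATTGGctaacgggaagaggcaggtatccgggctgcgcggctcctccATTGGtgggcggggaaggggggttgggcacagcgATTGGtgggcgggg
Map1lc3b: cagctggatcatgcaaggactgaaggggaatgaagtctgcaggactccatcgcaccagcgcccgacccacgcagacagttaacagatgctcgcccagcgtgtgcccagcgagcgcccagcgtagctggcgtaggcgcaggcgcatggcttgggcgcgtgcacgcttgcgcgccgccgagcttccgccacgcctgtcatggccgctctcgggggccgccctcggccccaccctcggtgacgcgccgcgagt
Cers1: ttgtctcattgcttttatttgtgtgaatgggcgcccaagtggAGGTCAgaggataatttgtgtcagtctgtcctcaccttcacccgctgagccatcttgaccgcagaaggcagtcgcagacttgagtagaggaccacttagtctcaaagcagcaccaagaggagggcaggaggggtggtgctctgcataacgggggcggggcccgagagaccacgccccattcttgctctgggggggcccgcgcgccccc
Cog2: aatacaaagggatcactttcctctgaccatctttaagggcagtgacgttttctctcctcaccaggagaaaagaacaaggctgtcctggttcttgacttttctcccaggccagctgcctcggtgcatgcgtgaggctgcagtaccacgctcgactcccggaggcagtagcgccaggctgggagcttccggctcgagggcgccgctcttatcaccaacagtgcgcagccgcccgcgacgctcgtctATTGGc
The Arntl window held 7 matches to CCAAT, all of them in the ATTGG orientation. At least 1 match was found in 33.8% of 32851 mouse promoter windows of this length, and 7 or more in 3 of them (0.00913%). CCAAT was added to the search after the Arntl window had been read. The Cog2 window held 1 CCAAT match and the other 2 windows none. AGGTCA (14% of windows) was found once, in the Cers1 window. The E-box CACGTG (6.02% of windows) and the element TGACGTCA (1.55%) were in none of the 4. Both strands were searched, no 2 of these motifs share letters in these windows, and a match describes the letters only. Of the 25 shared genes 21 had a window, and 8 of the 21 held CCAAT.

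Cers1, which makes the long-chain ceramides of neurons, read 5.05, 5.06, 5.07, 5.41 and 5.62 in WT, 4.26, 4.36, 4.62, 4.78 and 5.02 in SPE and 4.27, 4.41, 4.68 and 4.81 in SPI. All mutant arrays lay below all WT arrays, the nearest pair being WT 144 and SPE 166, and Cers1 was detected on 2 of 5 SPE and 1 of 4 SPI arrays. It fell by 0.66 ± 0.15 (SE, adjusted p = 0.0350), at -0.68 ± 0.18 in SPI and -0.63 ± 0.17 in SPE, and the layers differed by -0.051 (95% interval -0.37 to 0.26, adjusted p = 0.835). With so few mutant arrays detected, both layers lie near the detection limit, so this does not show that their levels are equal. Asl, argininosuccinate lyase, which releases arginine in the urea cycle, had the smallest larger-layer p-value of all features, 0.000707 unadjusted. It read 5.20, 5.61, 5.65, 5.66 and 5.82 in WT, 4.89, 5.00, 5.02, 5.13 and 5.19 in SPE and 4.38, 4.55, 4.62 and 4.91 in SPI. No mutant array reached the lowest WT array, that of animal 199, and Asl fell by 0.75 ± 0.12 (SE, adjusted p = 0.00930). It was called in the mutants in each of the 14 fits that left out 1 array. Its layers were called apart, SPI minus SPE being -0.42 (95% interval -0.66 to -0.17, adjusted p = 0.0189), so it was not in the shared class. A further Asl probe, detected on 11 arrays, differed from WT by -0.79 in SPI and -0.21 in SPE on group means. The Asl probe used was detected on 4 of 5 SPE arrays and 1 of 4 SPI arrays, so its SPI value lies near the detection limit. With median scaling its difference was -0.27 (-0.085 in SPI, adjusted p = 0.447), and with the brightness covariate it was -0.61 (adjusted p = 0.0777), neither of them called. Other enzymes rose, Pgpep1, which removes pyroglutamate from peptides (0.42 ± 0.10, adjusted p = 0.0436), and Nudt22, which cleaves nucleotide sugars (0.53 ± 0.12, adjusted p = 0.0354). Pgpep1 read 7.03 to 7.41 in WT and 7.41 to 7.97 in the mutants, which did not overlap before rounding, and Nudt22 overlapped at SPE 166 only.

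Ly6h had the smallest adjusted p of the shared genes. It encodes a protein anchored to the neuronal surface that binds nicotinic acetylcholine receptors. Its signal was 11.81, 12.07, 12.21, 12.34 and 12.38 in WT, 11.49, 11.68, 11.70, 11.82 and 11.84 in SPE and 11.10, 11.28, 11.29 and 11.71 in SPI. WT 145 overlapped the upper SPE arrays, and the other 4 WT arrays lay above all mutant arrays. Ly6h fell by 0.63 ± 0.12 (SE, adjusted p = 0.0220), at -0.80 ± 0.14 in SPI and -0.45 ± 0.13 in SPE, and both of its further probes were lower in both layers. It stayed called in 11 of the 14 fits that left out 1 array, the most within the shared class.

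Ppp5c, a serine/threonine phosphatase that works with the chaperone Hsp90, read 9.15, 9.23, 9.44, 9.76 and 9.90 in WT, 8.11, 8.93, 8.98, 9.00 and 9.03 in SPE and 7.87, 8.07, 8.52 and 8.92 in SPI. The groups did not overlap, and the difference was -0.91 ± 0.20 (SE, adjusted p = 0.0300) on the probe used. A further Ppp5c probe, detected on all 14 arrays, was higher in the mutants by 0.58 in SPI and 0.31 in SPE. The direction for the gene is therefore not settled by these arrays. Dusp22, a dual-specificity phosphatase, rose by 0.38 ± 0.10 (SE, adjusted p = 0.0458), and the small GTPase gene Rasl12 by 0.57 ± 0.15 (SE, adjusted p = 0.0465). Rasl12 read 6.08, 6.33, 6.44, 6.46 and 6.76 in WT, 6.67, 6.68, 6.86, 7.14 and 7.33 in SPE and 6.65, 7.08, 7.16 and 7.34 in SPI, so that 6 of 9 mutant arrays lay above all WT arrays. Lrrfip1, a protein that binds nucleic acids in the cytosol, fell by 0.37 ± 0.09 (SE, adjusted p = 0.0354). Its WT arrays were tightly grouped at 8.93, 8.95, 8.96, 9.01 and 9.04, and every mutant array lay lower, between 8.36 and 8.77.

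Wdr55, a nucleolar WD-repeat protein, read 5.33 to 5.58 in WT and 4.37 to 5.32 in the mutants without overlap (-0.56 ± 0.14, adjusted p = 0.0413). Its probe was detected on 4 of 5 SPE and 2 of 4 SPI arrays, so its SPI values lie near the detection limit. Ybx3, a cold-shock domain protein that binds DNA and RNA, read 4.83, 4.86, 4.87, 4.87 and 4.99 in WT, 4.49, 4.53, 4.55, 4.61 and 4.64 in SPE and 4.27, 4.43, 4.44 and 4.55 in SPI. It differed by -0.39 ± 0.08 (SE, adjusted p = 0.0244), and it was detected on all 5 WT arrays and on none of the 9 mutant arrays. The layers thus give only a bound, at least 1.05-fold lower in SPE, and no fold in SPI, where the lowest detected signal lay above the WT mean. Lhx9, a LIM-homeodomain transcription factor, fell by 0.50 ± 0.13 (SE, adjusted p = 0.0465) and was not detected on any SPI array, where the bound is at least 1.16-fold lower.

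The remaining shared genes were Stoml1, a stomatin-like protein of late endosomes (-0.90 ± 0.22, adjusted p = 0.0436), Ankrd24 (-0.60 ± 0.15, adjusted p = 0.0439), 1700037C18Rik (-0.51 ± 0.12, adjusted p = 0.0333), Tmem107, a protein of the base of the primary cilium (0.40 ± 0.10, adjusted p = 0.0445), and Tmem256 (0.42 ± 0.11, adjusted p = 0.0458). Stoml1 read 6.85, 7.11, 7.22, 7.25 and 7.28 in WT, 5.87, 6.47, 6.73, 6.75 and 6.80 in SPE and 5.11, 5.97, 6.37 and 6.40 in SPI. Its mutant arrays all lay below WT, by more in SPI than in SPE. On group means 2 further probes were lower in both layers, at -1.16 and -0.88 in SPI and -0.42 and -0.19 in SPE. For both of them the SPE difference was under 0.5 of the SPI one, so they did not meet the layer ratio of the class. The 9 mutant arrays of 1700037C18Rik also lay below all WT arrays, between 4.36 and 5.06 against 5.16 to 5.48. That probe was detected on 4 of 5 SPE and 2 of 4 SPI arrays, so its SPI values too lie near the detection limit. Tmem256 read 11.93 to 12.29 in WT, 12.21 to 12.78 in SPE and 12.57 to 12.76 in SPI, and its arrays overlapped WT at 1 SPE array. Over the class, 7 genes had 10 further detected probes. In both layers 8 of them had the sign of the probe used, and the 2 named above, for Ppp5c and Atpaf2, were opposite. Sign is a weak measure, since 71.2% of all features had the same sign in both layers. Sizes were unequal between SPI and SPE for the further probes of Lrrfip1 (-0.60 and -0.074) and Pgpep1 (0.076 and 0.31). They were closer for those of Ly6h (-0.94 and -0.54, -1.18 and -0.61). For 13 genes the array holds 1 probe. Detection was complete on all 14 arrays for 16 of the 25.

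**Figure D3:**
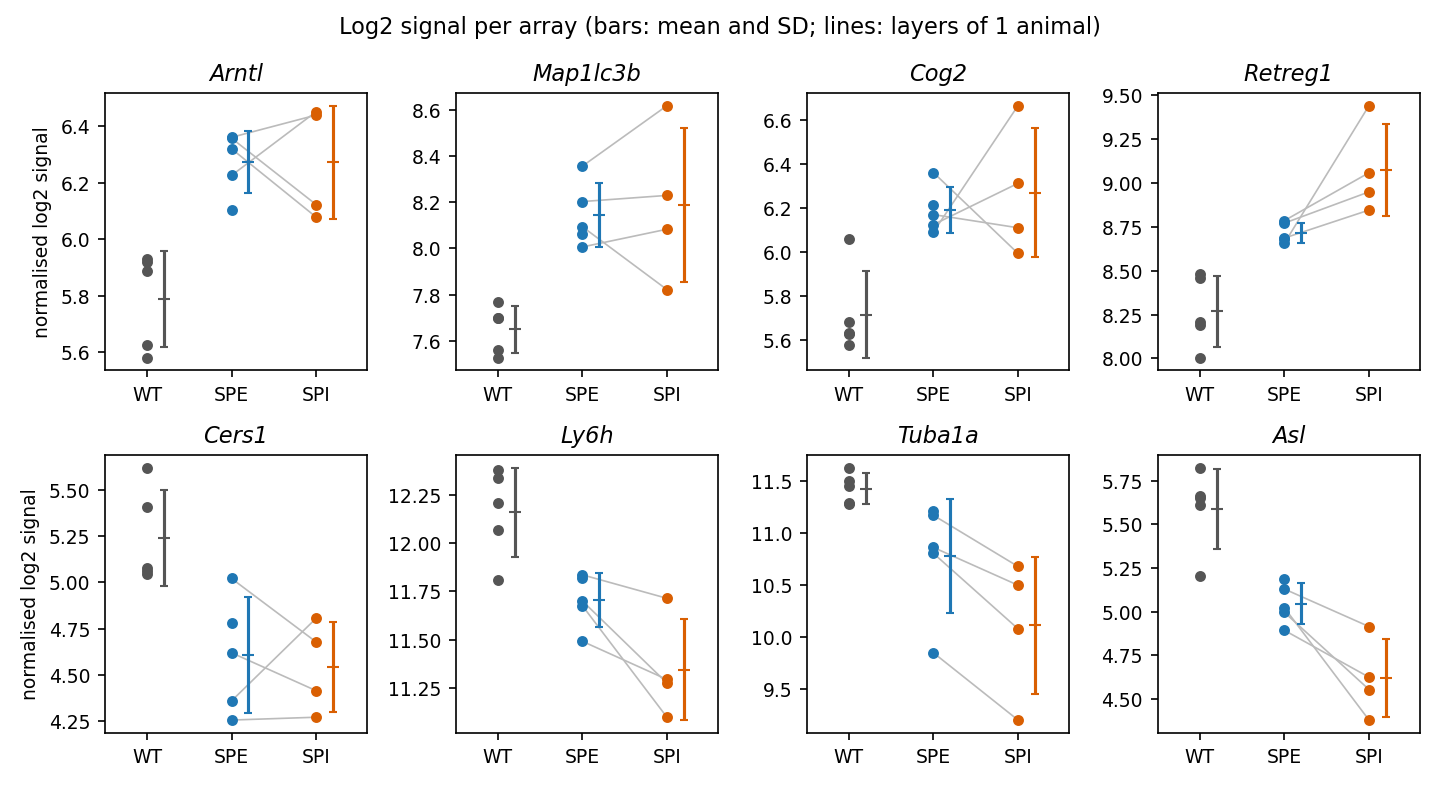
Normalised log2 signal on each array (points) for 8 genes in WT (n = 5), SPE (n = 5) and SPI (n = 4), with mean and SD beside the points and lines joining the layers of 1 animal; each panel has its own axis. Arntl and Map1lc3b sit at about the same level in both layers and apart from WT, while Retreg1, Tuba1a and Asl depart further in the inner layer.

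Complete separation of the 9 mutant arrays from the 5 WT arrays was found for 80 features (0.855%), 36 above (0.385%) and 44 below (0.47%). Of these 28 were called between mutant and WT, 12 of them shared and the others either carried by the inner layer or unresolved, such as Asl and Retreg1. Cldn10, a claudin of astrocytes, had the smallest adjusted p of all features (0.78 ± 0.10, adjusted p = 0.00446). Its values were 8.77, 8.79, 8.94, 8.95 and 9.00 in WT, 9.00, 9.09, 9.19, 9.24 and 9.26 in SPE and 9.92, 10.25, 10.28 and 10.36 in SPI, so that SPE 165 lay next to the highest WT array while every SPI array was far above. It differed by 1.30 ± 0.11 in SPI and 0.26 ± 0.11 in SPE, and the layers were called apart. Ppp2r3c, a regulatory subunit of protein phosphatase 2A, was separated in the other direction (-0.96 ± 0.15, adjusted p = 0.00930), with -1.47 ± 0.17 in SPI and -0.46 ± 0.16 in SPE. Tmem242 (-0.87 ± 0.17, adjusted p = 0.0232) and Tceal3 (-1.60 ± 0.35, adjusted p = 0.0300) were likewise lower on all mutant arrays and carried by the inner layer. Tbc1d22b, of a family that acts on Rab GTPases, was lower on all 9 (-0.57 ± 0.11, adjusted p = 0.0199), had a layer ratio of 0.51 and was called apart between layers. It was not detected on any SPI array, where the bound is at least 1.14-fold lower.

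The rule separated these genes from those carried by the inner layer. Of 1496 such features 842 were higher and 654 lower. The higher ones had a median of 0.72 in SPI and 0.086 in SPE, and the lower ones -0.82 and -0.15. The SPE difference had the opposite sign in 285 of the 1496. Cort, a neuropeptide of interneurons (2.29 ± 0.21 in SPI), Slc17a8, the vesicular glutamate transporter VGLUT3 (2.19 ± 0.19 in SPI and 0.19 ± 0.18 in SPE), and Npy, neuropeptide Y (1.99 ± 0.20 and -0.09 ± 0.19), were among the 5 largest rises. Npy read 8.16, 8.69, 8.92, 8.96 and 9.11 in WT, 8.07, 8.63, 8.75, 8.86 and 9.09 in SPE and 10.66, 10.68, 10.79 and 11.08 in SPI, so that SPE stayed within or near the WT range and SPI lay wholly above it. Slc17a8 and Npy were called between mutant and WT on the mean of the layers (Npy 0.95 ± 0.18, adjusted p = 0.0184), with unadjusted limma p-values in SPE of 0.311 and 0.648. A mutant call alone does not show that a gene moved in both layers.

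In all, 9 named genes differed from WT in opposite directions at an unadjusted p under 0.05 in each layer, and all 9 were higher in SPI and lower in SPE. Cbln1, a secreted organiser of synapses, read 5.93, 6.33, 6.36, 6.37 and 6.39 in WT, 5.65, 5.76, 5.83, 5.87 and 6.09 in SPE and 7.62, 7.78, 7.84 and 7.88 in SPI. Its SPI arrays lay above and all its SPE arrays but that of animal 147 below the WT range. It differed by 1.50 ± 0.12 in SPI and -0.44 ± 0.11 in SPE. Lypd1, which like Ly6h acts on nicotinic receptors, differed by 1.45 ± 0.34 in SPI and -1.14 ± 0.32 in SPE, and the interneuron genes Pvalb (1.04 and -0.36) and Slc32a1, the vesicular GABA transporter (1.18 and -0.46), behaved alike. On the mean of the layers Lypd1 was 0.16 ± 0.30 (SE, adjusted p = 0.793), so opposite layers cancelled.

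Markers of other cell types moved with the mutant calls. Of 10 measured microglial markers 5 were higher in the mutants, Tmem119 (0.66 ± 0.11, adjusted p = 0.0100), Laptm5 (0.90 ± 0.17, adjusted p = 0.0174), C1qa, P2ry13 and C1qb. Over all features 1.99% were called higher. All 5 markers were carried by the inner layer, as were 16% of all features. The list had a median of 0.93 in SPI and 0.22 in SPE, and its mean log2 signal was 5.43 to 5.63 in WT, 5.64 to 5.79 in SPE and 6.17 to 6.56 in SPI. Its 9 mutant arrays all lay above the 5 WT arrays. In SPE 9 of the 10 genes had a mean above WT, 2 of them at an unadjusted p under 0.05.

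Beside 1.99% of all features, astrocyte markers were called higher for 4 of 15 genes and oligodendrocyte markers for 6 of 17, again through the inner layer. Their mean log2 signal in SPE, 7.88 to 8.09 and 7.38 to 7.54, overlapped that in WT, 7.89 to 7.95 and 7.26 to 7.58. In SPI it was 8.40 to 8.89 and 7.92 to 8.71, above WT on all 4 arrays. Interneuron markers were higher for 5 of 14 genes (7.56 to 7.85 in WT, 7.43 to 7.80 in SPE, 8.53 to 8.96 in SPI) and markers of oligodendrocyte precursors for 2 of 6. On the mean of the layers pan-neuronal markers gave 0 calls of 19. SPI alone, where 24.5% of all features were called, gave 2 of these markers higher and 6 lower. Their mean was 11.46 to 11.53 in WT, 11.37 to 11.49 in SPE and 11.27 to 11.42 in SPI. Every SPI array thus lay below every WT array. None of the 25 shared genes was on a marker list.

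**Figure D4:**
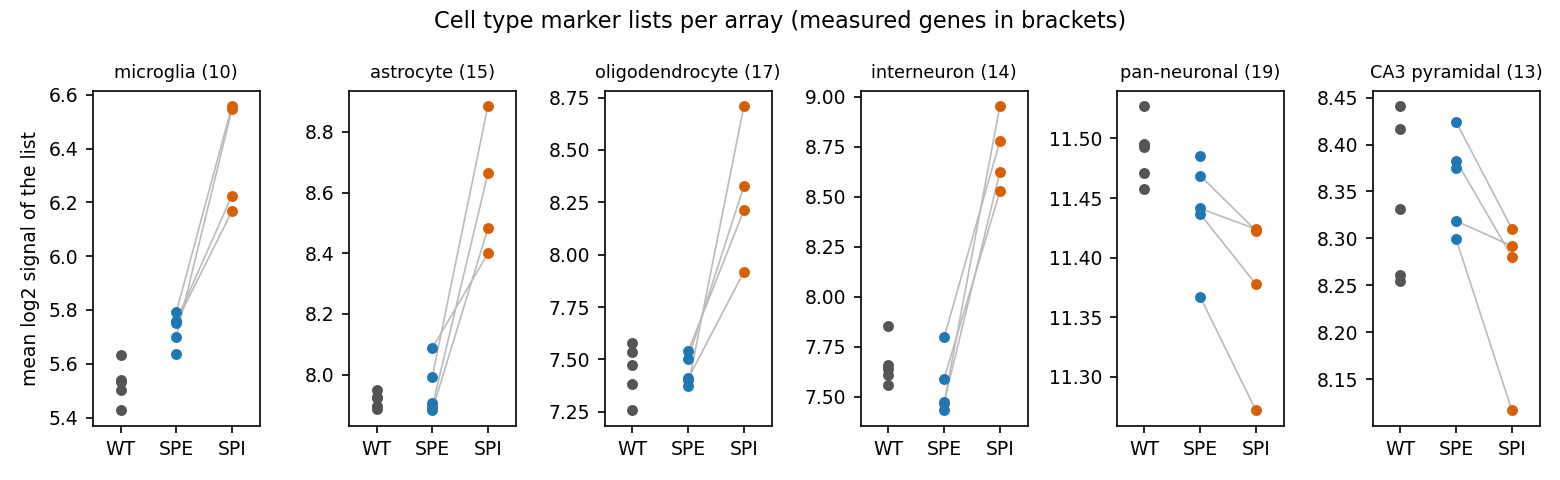
Mean log2 signal of 6 marker lists on each array (points), in WT (n = 5), SPE (n = 5) and SPI (n = 4), with lines joining the layers of 1 animal; the number of measured genes is in brackets and each panel has its own axis. Microglial, astrocyte, oligodendrocyte and interneuron lists lie above WT on all 4 SPI arrays, and in SPE only the microglial list lies above all WT arrays.

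Other programmes held few shared changes. Of 49 measured cytosolic ribosomal genes 1 rose in the mutants and 15 were higher through the inner layer, with a list median of 0.18 in SPI and -0.015 in SPE. Over all features 16% were carried by the inner layer in either direction. Among 34 measured proteasome and ubiquitin genes 1 fell, and of 25 RNA-binding and splicing genes 2 fell, all through the inner layer. Srsf3, a splicing factor, was higher on all 9 mutant arrays than on any WT array without being called (0.31 ± 0.11, adjusted p = 0.10). On the mean of the layers, no gene was called against WT among 21 glutamate receptor, 7 GABA receptor, 17 immediate early, 17 TCA cycle, 16 cholesterol, 28 redox and 17 endoplasmic reticulum chaperone genes measured. SPI alone gave calls in each of these lists, such as 2 higher and 6 lower glutamate receptor genes and 5 higher and 5 lower redox genes. Of all features 24.5% were called in SPI.

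The X chromosome, which carries Dcx, held 0 of the 25 shared genes and 3.13% of the features on annotated chromosomes. Of the 20 genes on each side of Dcx, 5 were measured. Acsl4 (-0.28 ± 0.11, adjusted p = 0.146), Pak3 (-0.26 ± 0.14, adjusted p = 0.264) and Gm5643 (-1.24 ± 0.35, adjusted p = 0.0613) were not called on the mean of the layers but were lower in SPI and carried by it, and Rtl4 and Trpc5 were not called in any comparison with WT. Chromosome 8 held 4 shared genes (Cers1, Cog2, Map1lc3b and Pgpep1) and 5.58% of the features, and chromosome 11 held 4 with 8.78%.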

How the data were processed

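RNA of hippocampal CA3 from 10 mice was measured on 14 Illumina bead arrays, grouped by their titles. The first table the authors deposited holds a bead signal as linear intensity, not normalised between arrays, and a detection p-value for each of 25697 probes. The second deposited table holds the authors' normalised intensity values and served as an alternative. Per the submitters' processing notes BeadStudio was used, and its settings are not given in the sources used here. Neither table has columns of other samples (0).

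With R 4.3.3 and limma 3.58.1, neqc corrected background (negative controls inferred from the detection p-value, offset 16), normalised by quantiles and took log2. The filter kept 12140 probes that 4 or more arrays detected at p under 0.05, and the brightest probe stood for each gene. The platform annotation named 1 gene for 23978 probes, several for 0 and none for 1719, of which 23962 matched RefSeq (GRCm38.p6). All 14 arrays entered 1 fit of 3 groups with the animal as a random block (within-animal correlation 0.319, with 11 degrees of freedom left and 4.11 added by the prior). The animal numbers in the titles give the pairing: deviations from the group mean correlated between layers of the same animal at 0.131, 0.262, 0.266 and 0.626 for animals 147, 146, 166 and 148. Different animals could correlate about as highly (inner 166 with outer 165 at 0.314, inner 146 with outer 166 at 0.255), so this check is weak beside the titles. Contrasts were the mean of SPI and SPE against WT, each layer against WT, and SPI against SPE, all two-sided, with Benjamini-Hochberg adjustment over 9355 features. Errors of differences are standard errors of the fit. A layer without a detected array for a probe gives a bound, from the higher of its own and the lowest detected signal per array. The number of arrays limits the precision.

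Members and the 41 gene lists were chosen with earlier results of these data known, and lists are described by counts and medians only. The named genes follow a rule: the 10 largest rises and falls of the shared class, the 10 smallest p-values of the both-layer comparison, up to 10 called features with separated arrays, the 5 largest inner-layer differences each way, up to 3 members per list, the Dcx family and the genes around Dcx. The shared genes beyond that rule, the genes just inside or outside a limit, Tuba1b, Sdhb, Cox6a1, Cope and the genes with opposite layers were named after their values were seen. Alternatives covered background correction, scaling, filters, probe choice, the block, array weights, a brightness covariate and left-out arrays or animals. The fit and classes were run on simulated data, with added differences either equal in both layers or in SPI only. No brightness difference between arrays was simulated, so this run does not show how reliable the classes are on these arrays. Promoter sequences are RefSeq's on GRCm38.p6.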

Additional observations from a re-analysis of the deposited data

Results flagged for a closer look

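Of 84 groups of arrays checked over 28 features (the shared genes and the leading genes of the both-layer comparison), 6 held an array that stood apart from the others of its group, where chance gives about 1 in 20. Animal 148 gave 4 of the 6. Its SPE array was low for Ppp5c (8.1120) and high for Tmem256 (12.7777), in both cases on the side away from WT. Its SPI array was high for Cyb561a3 (7.5676) and for Dusp22 (7.9746), again away from WT. SPE 148 and SPI 148 were among the 3 dimmest arrays, and the part of brightness in these values was not tested. The other 2 arrays were WT ones. WT 199 was high for Cog2 (6.0614), towards the mutant level, and WT 144 was high for Ybx3 (4.9869), away from it.

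Asl and Retreg1 moved the same way in both layers but by amounts that differed between them. SPI minus SPE was -0.41644 for Asl (adjusted p = 0.0189 by limma) and 0.35436 for Retreg1 (adjusted p = 0.0404), with all 4 SPI and all 5 SPE arrays beyond WT for both genes.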

How the results depend on the processing

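SPE against WT gave 0 calls, the outer-carried class 0 features and the both-layer comparison 0 adjusted calls under every setting run. The number of features classed as shared (25) was 56 without background correction and 56 on the deposited values (14 of the 25 in each), 12 with median scaling (4 of the 25), 0 with the median of all probes (chosen after seeing the data), 41 with detection on all arrays, 48 with every probe a feature, 56 with no replicate block (24 of the 25), 123 with array weights (18 of the 25), 0 with the brightness covariate, 3 without animal 147, 86 without the 3 dimmest arrays (20 of the 25), 0 with the 9 mutant arrays as 1 group, 5 at a ratio of 0.75 and 138 at an adjusted p under 0.1. Mutant calls higher (186) and lower (110) were 296 and 191 without background correction, 298 and 192 on the deposited values, 308 and 199 with no replicate block, 643 and 454 with array weights, 0 and 0 with the covariate, 76 and 21 without animal 147, 423 and 337 without the dimmest arrays, 305 and 258 with the 4 animals that gave both layers averaged, 0 and 0 as 1 group and 0 and 0 with the median of all probes. Calls higher were 280 with detection on all arrays. Calls lower were 60 with median scaling, 68 without a filter, 235 with every probe and 174 without animal 148. The share of higher calls was 62.8%, against 73.8% with median scaling, 73% without a filter and 47.3% with every probe. SPI against WT (2289) gave 4019 with the median of all probes and 503 with the covariate. SPI against SPE (1917) gave 0 and 781 there, 1065 with no replicate block and 1175 without the dimmest arrays. Inner-carried features (1496) numbered 0, 436 and, with no replicate block, 984. Both-layer features at an unadjusted p (237) numbered 151 with median scaling, 53 with the median of all probes, 389 with array weights, 361 without animal 147 and 134 without animal 148.

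Leaving out 1 array gave 0 to 57 shared features, 30 to 415 calls higher and 4 to 334 lower (fewest without WT 206, most without SPI 166), 946 to 2217 between layers and 795 to 1815 inner-carried (fewest without SPI 148), and 77 to 401 both-layer features (77 without SPE 148, 150 without WT 206, 401 without SPI 147). Of the 25 shared genes, 25 kept their sign in each such fit, which their choice on the same arrays made likely, and 0 were called without WT 144 or WT 206. Direction turned with median scaling for 1700037C18Rik (0.0078), Lhx9 (0.0069), Ube2j2 (0.13) and Ybx3 (0.21). It turned with the median of all probes, which moved all features by -0.48, for Tmem256 (-0.15), Arntl (-0.042), Atpaf2 (-0.29), Cog2 (-0.0078), Cyb561a3 (-0.18), Dusp22 (-0.32), Map1lc3b (-0.20), Nudt22 (-0.17), Pgpep1 (-0.28), Rasl12 (-0.027), Tmem107 (-0.25), Vps37b (-0.21), Retreg1 (-0.10) and 1110038F14Rik (-0.35). The mean of a gene's probes turned 1110038F14Rik (-0.098). Over the named genes and settings, 449 values kept direction and call, 355 lost the call, 7 gained it and 19 turned. The cause of these moves was not tested.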
